A study of Bos indicus x Bos taurus with 78 samples.

Results

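The HOX-cluster miRNAs miR-10a (bta-miR-10a in the count matrix), miR-10b (bta-miR-10b), miR-196a (bta-miR-196a) and miR-196b (bta-miR-196b) were taken by name as 4 of the 1030 mature miRNA rows. All 4 had counts in each of the 78 libraries and passed the filter on low counts. The libraries were made from biopsies of Longissimus lumborum, a loin muscle, of male Bos indicus x Bos taurus steers, 1 library per steer. The labels call 53 steers normal and 25 dark-cutting, the latter with a degree of 1/4 (8 steers), 1/3 (9 steers), 1/2 (3 steers), 2/3 (4 steers) or 3/4 (1 steer), and name no treatment, age or batch. Dark cutting is a meat quality defect known from animals whose muscle glycogen was depleted before slaughter. What the fraction measures is not given by the labels.

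HOX genes encode transcription factors that give cells their position along the body axis, and they lie in 4 clusters in mammals. The miRNA genes sit between them: miR-10a lies beside HOXB4, miR-10b beside HOXD4 and miR-196b between HOXA9 and HOXA10, while miR-196a is made from genes in both the HOXB and the HOXC cluster. They are transcribed along with their neighbours and repress HOX messages, as miR-196 does with HOXB8 and miR-10b with HOXD10, and their levels in adult tissues differ with body position. The miR-10a and miR-10b sequences are near-identical, as are those of miR-196a and miR-196b, and how reads that fit both rows were counted was not stated in the labels or file headers. No row was identical in counts to any of the 4.

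The shallowest library held 1427817 counts and the deepest 4535675, around a median of 3209320. The 7 muscle fibre markers made up 76.3% to 90.3% of the counts of a library, with a median of 87.2%, and miR-1 is the most abundant of them. One library, normal replicate 19, stood apart with the highest share of the red blood cell markers miR-451 and miR-144, 0.248% of counts against a median of 0.0123%. Levels are given as log2 CPM (counts scaled to a common library size) after TMM scaling, which sets the libraries to one scale by the bulk of their miRNAs, and a fold change is relative to the other miRNAs of the library. In bulk tissue, fewer cells of a type and less RNA per cell cannot be told apart. The title numbers of the steers fall below 600 in 26 and at 600 or above in 52, and this split was used to look for a difference between sets of animals that the groups do not explain.

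In the loin muscle of these steers miR-10b was by far the most abundant of the HOX-cluster miRNAs. It had 3579 to 15402 counts per library with a median of 7773.5, or 0.249% of all counts at the median, and ranked 19 of 1030 rows by mean count. Its relative miR-10a had 129 to 647 counts (median 358.0, rank 79). For the miR-196 pair the range was 184 to 1047 counts for miR-196a (median 468.5, rank 64) and 153 to 585 for miR-196b (median 310.5, rank 85). The mature miRNAs are of near-equal length, so these levels were compared without a length correction, and ligation of each sequence into a library may differ. Counting error alone gave an SD of 0.02 log2 units for miR-10b and of 0.07 to 0.09 for the other members at these depths. In the shallowest library it was 0.024 for miR-10b, 0.127 for miR-10a, 0.106 for miR-196a and 0.117 for miR-196b.

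Within a library miR-10b exceeded miR-10a in every steer, by 23.2-fold at the geometric mean and between 16.8-fold and 33.9-fold. The ratio of miR-196a to miR-196b was much nearer to 1, at 1.56-fold with a range of 0.980-fold to 2.55-fold. Such ratios do not depend on how the libraries are scaled. The log2 ratio of miR-10b to miR-10a was 4.53 ± 0.23 (SD, n = 25) in dark-cutting and 4.54 ± 0.21 (SD, n = 53) in normal steers, a difference of -0.01 (permutation p = 0.801, two-sided, adjusted p = 0.801 over 4 ratio tests). For miR-196a over miR-196b it was 0.71 ± 0.25 and 0.61 ± 0.30, a difference of 0.11 (permutation p = 0.139, two-sided, adjusted p = 0.516). That difference was -0.04 in steers numbered below 600 and 0.18 in those of 600 or above. The latter had an adjusted permutation p of 0.0613, adjusted only over the tests of both ratios in that set and not over all 4. Between the 8 dark-cutting steers of degree 1/2 or more and the 17 of 1/3 or less, the differences in log2 ratio were -0.06 for the miR-10 pair (exact permutation p = 0.568, adjusted p = 0.757) and 0.13 for the miR-196 pair (exact permutation p = 0.258, adjusted p = 0.516).

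No difference between dark-cutting and normal steers in any of the 4 miRNAs was larger than the spread between animals. The log2 fold change of miR-10b was -0.03 ± 0.06 (SE), with a 95% interval from 0.904-fold to 1.07-fold. It was -0.0027 ± 0.08 for miR-10a (0.899-fold to 1.11-fold), 0.07 ± 0.07 for miR-196a (0.952-fold to 1.16-fold) and -0.0074 ± 0.09 for miR-196b (0.882-fold to 1.12-fold). Adjusted p by edgeR's quasi-likelihood test was 0.908, 0.987, 0.737 and 0.975 for miR-10b, miR-10a, miR-196a and miR-196b. Over all 252 miRNAs tested, 0% were called at an adjusted p under 0.05 by edgeR, and DESeq2 and limma-voom called 0 as well. Without adjustment, 9.13% of them, or 23, were under 0.05 with edgeR, none of the 4 members among them, against 23 with DESeq2 and 28 with limma-voom. The fold changes move with the scaling: with total counts alone the median over all miRNAs went from -0.0091 to 0.10, and miR-10a, miR-10b and miR-196b turned from below 0 to 0.12, 0.10 and 0.08, near that median. Under that scaling miR-196a was at 0.17, above the median, with an interval of 0.01 to 0.34 and an unadjusted p of 0.0367 that did not pass (adjusted p = 0.307, edgeR), and without miR-1 in the total it was at 0.13 (adjusted p = 0.413, edgeR). The authors' deposited table lists log2 fold changes of -0.02 for miR-10b, 0.0044 for miR-10a, 0.07 for miR-196a and -0.0060 for miR-196b, with adjusted p-values from 0.946 to 0.993.

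The levels of normal and dark-cutting steers overlapped throughout. In normal steers miR-10b ran from 10.64 to 11.82 log2 CPM (median 11.26) and in dark-cutting steers from 10.87 to 11.65 (median 11.24), so all 25 dark-cutting steers lay within the normal range, 12 of them above the normal median. The range of miR-10a was 5.99 to 7.29 (median 6.82) and 6.16 to 7.27 (median 6.66), again with all 25 inside. For miR-196a the values were 6.60 to 7.72 (median 7.22) and 6.59 to 7.80 (median 7.27), with 22 of 25 inside the normal range. For miR-196b they were 6.05 to 7.35 (median 6.57) and 5.76 to 7.44 (median 6.54), with 21 of 25 inside. The dark-cutting steers outside the normal range lay on both sides of it for miR-196a and miR-196b.

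**Figure D1:**
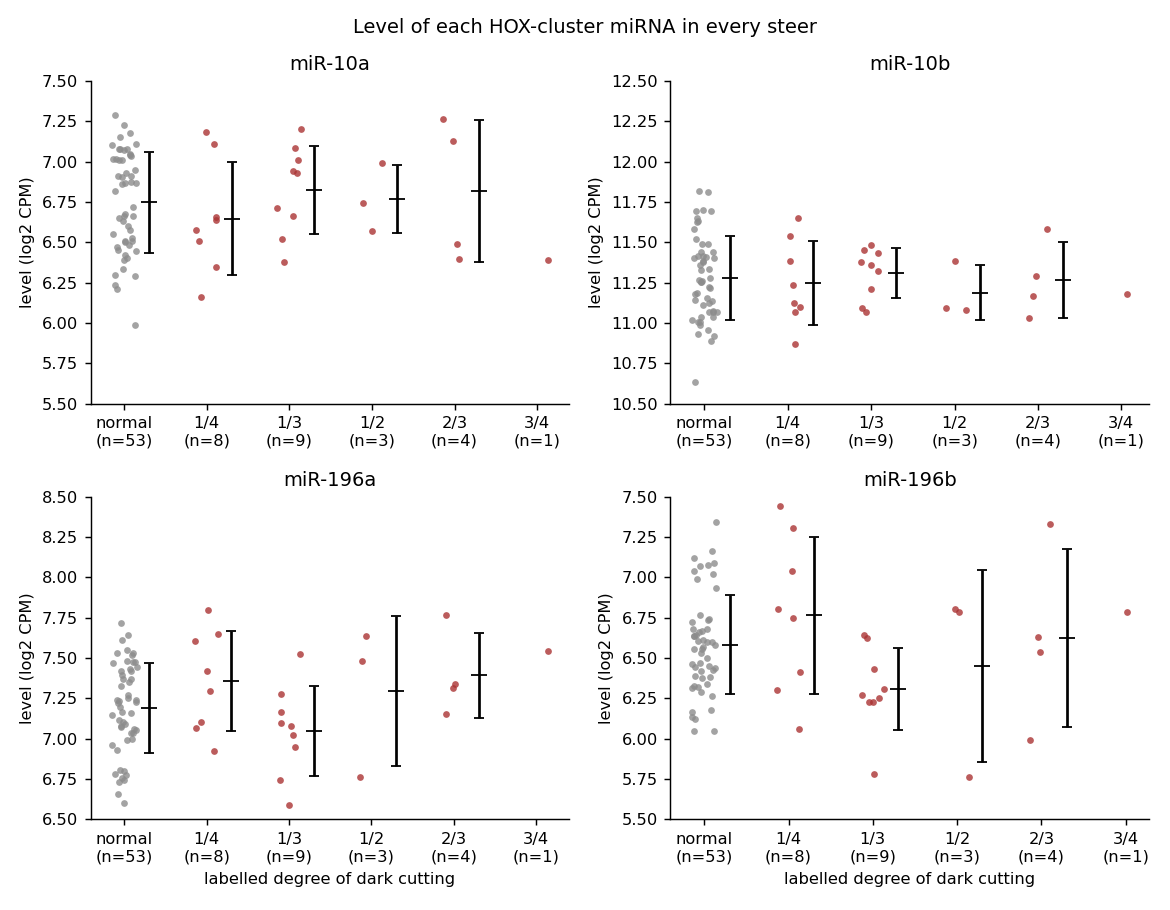
Level of each HOX-cluster miRNA in log2 CPM (vertical axis, spanning 2 log2 units in each panel) against the labelled degree of dark cutting (horizontal axis). Each point is 1 steer, grey for normal and red for dark-cutting, and bars give the mean with its SD where a group has more than 1 steer. Each degree overlaps the normal steers in every panel, and the steers of degree 1/3 have the lowest mean for miR-196a and miR-196b.

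Within each set of animal numbers the differences were small too. Below 600 the log2 fold changes were 0.0075 for miR-10a, -0.0071 for miR-10b, -0.0070 for miR-196a and 0.04 for miR-196b, and at 600 or above they were 0.02, -0.0091, 0.13 and -0.02. No member passed the test for a phenotype difference that differs between the sets (adjusted p from 0.942 to 0.978, edgeR), in which 0% of 252 miRNAs were called and 3.97%, or 10, had an unadjusted p under 0.05. No member passed the test between the sets themselves either, where the log2 difference of the steers below 600 was 0.11 ± 0.07 (SE) for miR-10a, 0.10 ± 0.06 for miR-10b, 0.05 ± 0.07 for miR-196a and -0.06 ± 0.09 for miR-196b (adjusted p from 0.497 to 0.850, edgeR) and 0.794% of miRNAs were called.

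By degree, the miR-196 pair had its lowest mean in degree 1/3 and a mean above that of normal steers in degree 1/4. The miR-10 pair had log2 fold changes from -0.10 to 0.09 in the replicated degrees. Against normal steers, degree 1/3 had miR-196b at -0.27 ± 0.13 (log2 fold change and SE), which is 0.827-fold, with 2 of 9 steers above the normal median. This was the single member test of 28, over 7 comparisons, with an unadjusted p under 0.05 (p = 0.0387), and it did not pass after adjustment (adjusted p = 0.478, edgeR). It was -0.12 (unadjusted p = 0.408) with total counts and -0.16 (unadjusted p = 0.159) without miR-1 in the total, against a median over all miRNAs of 0.13 and 0.10 under these scalings. In degree 1/3, 9.19% of the 272 miRNAs tested had an unadjusted p under 0.05, or 25 with edgeR, 25 with DESeq2 and 27 with limma-voom, and 0% passed with adjustment by each of these tools. Steers of degree 1/3 ran from 5.78 to 6.64 log2 CPM in miR-196b (median 6.27) and from 6.59 to 7.53 in miR-196a (median 7.08), whose log2 fold change was -0.13 ± 0.10. Of the miR-10 pair, miR-10a was at 0.09 ± 0.11 and miR-10b at 0.04 ± 0.09 in that degree.

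Steers of degree 1/4 had miR-196b at 0.22 ± 0.13 and miR-196a at 0.17 ± 0.11, with adjusted p = 0.998 for both by edgeR and 5 of 8 steers above the normal median in each. Their levels ran from 6.06 to 7.44 log2 CPM (median 6.78) in miR-196b and from 6.93 to 7.80 (median 7.36) in miR-196a. In each of these miRNAs only replicate 4 of the degree lay above the highest normal steer. The same degree had miR-10a at -0.10 ± 0.11 and miR-10b at -0.04 ± 0.09. In degree 1/4, 1.1% of 272 miRNAs had an unadjusted p under 0.05, or 3 with edgeR, no member among them, 6 with DESeq2 and 7 with limma-voom, and 0% passed with adjustment by each of these tools.

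Set directly against each other, degree 1/3 was below degree 1/4 by -0.49 ± 0.17 (SE) in miR-196b and by -0.30 ± 0.14 in miR-196a. The difference in miR-196b had the smallest p of all 272 miRNAs in this contrast (unadjusted p = 0.00526), but adjusted p was 0.999 by edgeR, and 3.31% of miRNAs had an unadjusted p under 0.05. When 1 of the 17 steers was left out at a time, it lay between -0.59 and -0.38. With total counts it was -0.33 (unadjusted p = 0.0860, rank 12) and without miR-1 in the total -0.34 (unadjusted p = 0.0222, rank 6), and miR-196a was at -0.16 under both (unadjusted p = 0.348 and 0.258). This contrast was looked at because of the values above. In the other 5 contrasts between replicated degrees no member had an unadjusted p under 0.05, and 0% of miRNAs passed with adjustment in each of the 6 by edgeR. The shares with an unadjusted p under 0.05 were 1.84% for 1/2 against 1/4, 2.21% for 1/2 against 1/3, 2.94% for 2/3 against 1/4, 2.57% for 2/3 against 1/3 and 1.1% for 2/3 against 1/2.

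The 3 steers of degree 1/2 had miR-196b at 6.80, 6.79 and 5.76 log2 CPM and miR-196a at 7.64, 7.48 and 6.76. So 2 of the 3 were above the normal median and the other was the lowest of all 78 steers in miR-196b, and the mean log2 fold changes of -0.05 ± 0.21 (SE) and 0.17 ± 0.17 average over animals that lay apart (adjusted p = 0.994 for both, edgeR). Without that steer they were 0.22 and 0.39. In the same steers miR-10a was at 6.75, 6.57 and 6.99 and miR-10b at 11.39, 11.09 and 11.08, so the steer with the lowest miR-196b had the highest miR-10a of its group. The log2 fold changes were 0.05 ± 0.18 for miR-10a and -0.07 ± 0.14 for miR-10b, and without replicate 3 miR-10a was at -0.07. Of 272 miRNAs, 4.78% had an unadjusted p under 0.05 in this degree, or 13 with edgeR, no member among them, 13 with DESeq2 and 15 with limma-voom, and 0% passed with adjustment by each of these tools.

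A like split was seen in degree 2/3. There miR-196b was at 6.54, 7.33, 5.99 and 6.63 log2 CPM in replicates 1 to 4, and miR-10a was at 7.13, 6.49, 7.27 and 6.40. Replicate 2 had the highest miR-196b, and replicate 3 the lowest miR-196b and the highest miR-10a. For miR-196a the values were 7.15, 7.77, 7.34 and 7.31, and for miR-10b 11.29, 11.17, 11.58 and 11.03. The log2 fold changes against normal were 0.01 ± 0.18 (SE) for miR-196b, 0.12 ± 0.15 for miR-196a, 0.0050 ± 0.16 for miR-10a and -0.10 ± 0.12 for miR-10b (adjusted p = 0.988 for all 4, edgeR), where 0.368% of 272 miRNAs were called and 2.57% had an unadjusted p under 0.05. Without replicate 2, miR-196b was at -0.29 and miR-196a at -0.03. Without replicate 3, miR-196b was at 0.27 and miR-10a at -0.07.

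The single steer of degree 3/4 had 11.18 log2 CPM of miR-10b, 6.39 of miR-10a, 7.54 of miR-196a and 6.79 of miR-196b. It lay -1.15 normal SD from the normal mean in miR-10a and 1.26 normal SD from it in miR-196a, inside the normal range for all 4. It was not set against normal steers on its own, and it is 1 of the 25 dark-cutting steers and of the 8 of degree 1/2 or more in the other tests. Over the 6 groups, the order of mean levels of miR-10b spanned only 0.13 log2 units from lowest (3/4) to highest (1/3), and that of miR-10a 0.44 units between the same groups. For miR-196a and miR-196b the ends were swapped, with 1/3 at the bottom and the single steer of 3/4 at the top, over 0.49 and 0.48 units. The groups between these ends did not come in the reverse order. Every pair of neighbours in each order overlapped in its values. The 3/4 steer lay above the highest of the 9 steers of degree 1/3 in miR-196a (7.54 against 7.53 log2 CPM) and in miR-196b (6.79 against 6.64). These groups were set side by side because they were the ends of the order. How many of all miRNAs show the same was not counted.

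No slope of a member on the degree as a number passed the test. With normal steers taken as 0, the slope per unit of degree was -0.10 ± 0.13 (SE) log2 units for miR-10b, -0.02 ± 0.16 for miR-10a, 0.19 ± 0.16 for miR-196a and -0.04 ± 0.20 for miR-196b (adjusted p = 0.802, 0.981, 0.626 and 0.972, edgeR), and 0.368% of 272 miRNAs were called, with 11% at an unadjusted p under 0.05. Without the single steer of degree 3/4 the slope of miR-10a was 0.05. The slope of miR-196a was 0.44 (unadjusted p = 0.0191, adjusted p = 0.307, edgeR) with total counts, where the median over all miRNAs was 0.19, and 0.34 (unadjusted p = 0.0256, adjusted p = 0.249, edgeR) without miR-1 in the total. Between the 8 dark-cutting steers of 1/2 or more and the other 17 the differences were -0.10 ± 0.10, -0.03 ± 0.14, 0.13 ± 0.13 and 0.01 ± 0.18 in the same order. There adjusted p was 0.989 for all 4, and 0% of 251 miRNAs were called by edgeR, DESeq2 or limma-voom. Without adjustment 2.39% were under 0.05, or 6 with edgeR, 7 with DESeq2 and 5 with limma-voom. In the comparisons of phenotype, of each degree with normal steers and of higher with lower degrees, all 24 intervals of a member lay inside a 1.5-fold change in either direction. In the contrasts between single degrees 8 of 24 intervals reached past it.

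**Figure D2:**
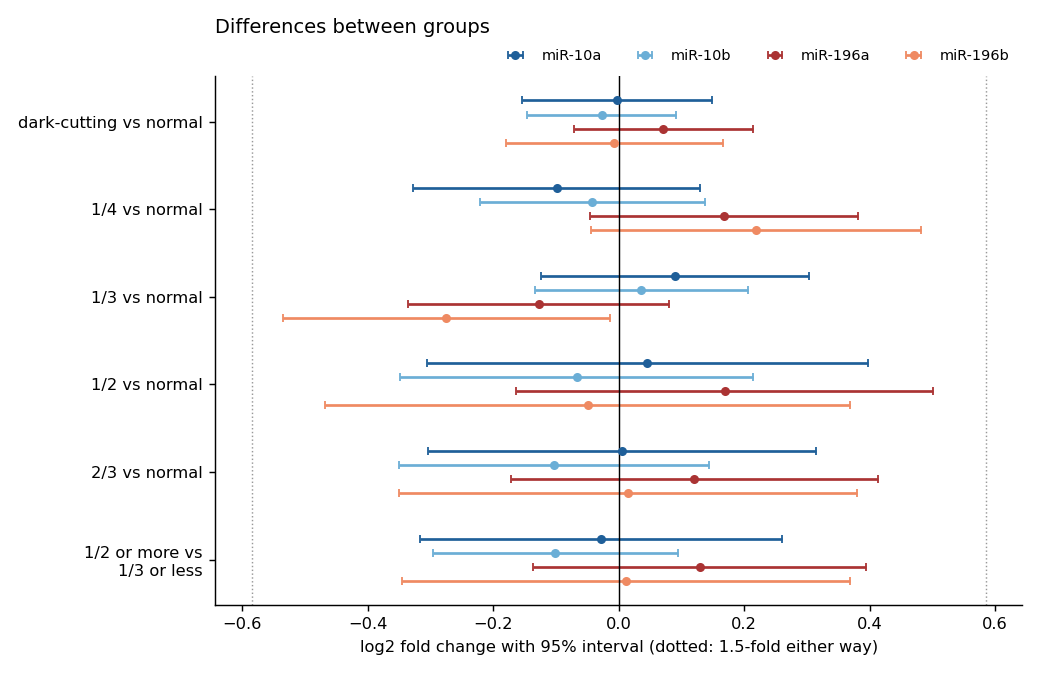
Log2 fold change (horizontal axis) of each HOX-cluster miRNA with its 95% interval in 6 comparisons (vertical axis). Dotted lines mark a 1.5-fold change in either direction, and all 24 intervals lie inside them. The interval of miR-196b in degree 1/3 is the only one that leaves out 0, and that test did not pass after adjustment.

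While the group means lay close together, the members of each pair varied together between steers. The miR-10 pair moved together: over 78 steers the log2 CPM of miR-10a and miR-10b had Pearson's r = 0.723 and Spearman's rho = 0.737 (permutation p = 1e-05 for both, the smallest that 100000 resamples can give, adjusted p = 2e-05 and 1.5e-05 over 6 pairs). The miR-196 pair did so too, with r = 0.6135 and rho = 0.584 (permutation p = 1e-05 for both). How reads that fit both rows of a pair were counted is not known, and their part in these relations within the pairs was not tested. Between the pairs the relation was opposite, with r = -0.620 and rho = -0.640 for miR-10a with miR-196b (permutation p = 1e-05 for both), and r = -0.487 and rho = -0.535 for miR-10b with miR-196b (permutation p = 2e-05 and 1e-05, adjusted p = 3e-05 and 1.5e-05). With TMM scaling, steers with more miR-10a thus tended to have less miR-196b relative to the other miRNAs. With total counts alone that rho was -0.209 and did not pass (adjusted permutation p = 0.0998).

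The relation of miR-196a with the miR-10 pair was weaker. With miR-10a it had r = -0.297 and rho = -0.294 (permutation p = 0.00848 and 0.00932, adjusted p = 0.0102 and 0.0112), and with miR-10b r = 0.0058 and rho = 0.01 (permutation p = 0.959 and 0.904). The relation with miR-10a did not pass within normal steers (rho = -0.162, adjusted permutation p = 0.293) or below 600 (rho = -0.196, adjusted permutation p = 0.401). Its rho was -0.529 within dark-cutting steers and -0.395 at 600 or above, and the differences between these sets were not tested. Over all 78 steers its rho was 0.045 with total counts and -0.119 without miR-1 in the total (adjusted permutation p = 0.694 and 0.298). Without the 2 steers farthest from the median on the first miRNA of each pair, r was 0.699 for the miR-10 pair, 0.587 for the miR-196 pair, -0.610 for miR-10a with miR-196b, -0.528 for miR-10b with miR-196b and -0.326 for miR-10a with miR-196a. In that set r was -0.0066 for miR-10b with miR-196a.

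**Figure D3:**
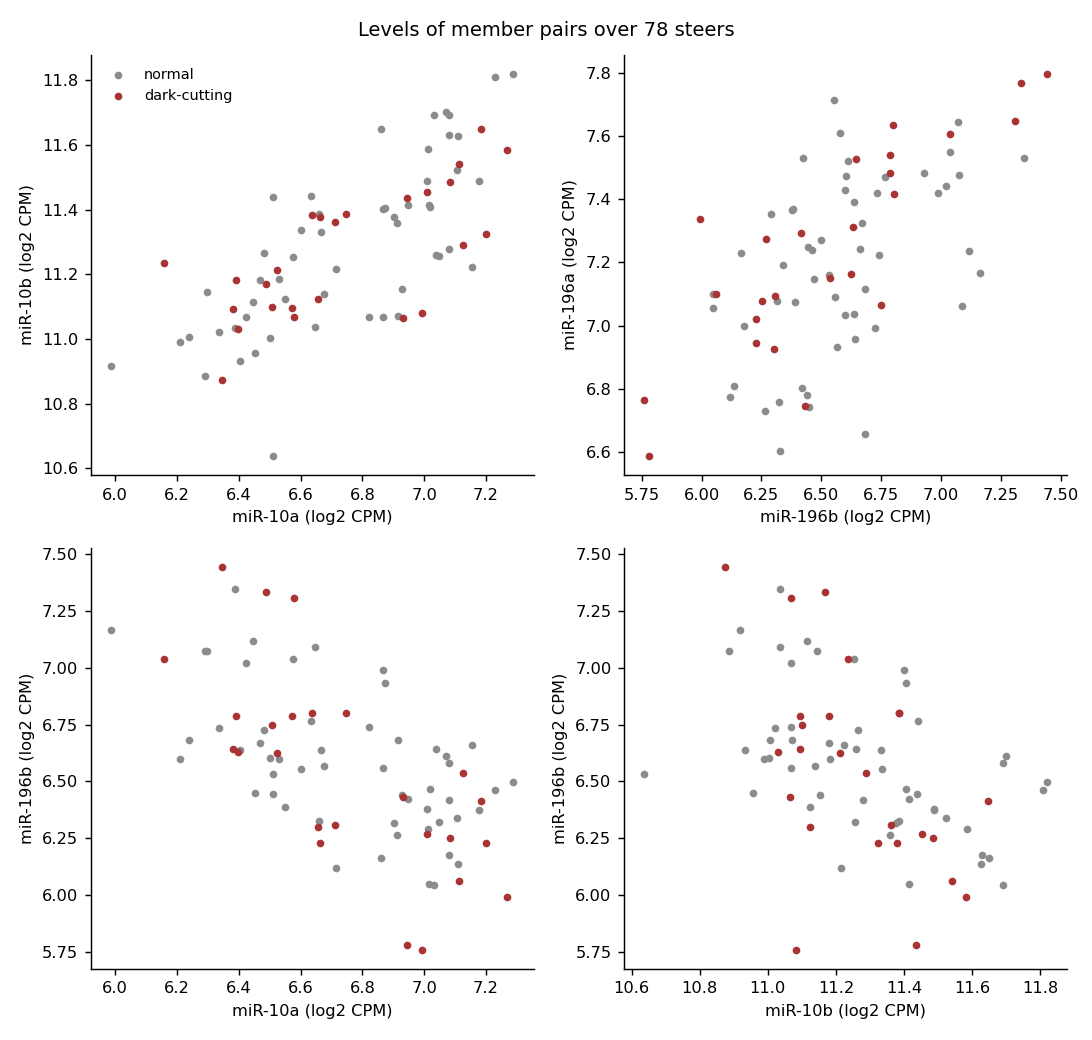
Levels of 4 pairs of HOX-cluster miRNAs, each axis in log2 CPM, with 1 point per steer (grey for the 53 normal, red for the 25 dark-cutting steers). The upper panels slope upward (rho = 0.737 for the miR-10 pair and 0.584 for the miR-196 pair), and the lower panels slope downward (rho = -0.640 and -0.535), with both phenotypes mixed along each.

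The 4 stronger relations held within each phenotype and each set of animal numbers. In normal steers rho was 0.767 for the miR-10 pair, 0.455 for the miR-196 pair, -0.573 for miR-10a with miR-196b and -0.542 for miR-10b with miR-196b. In dark-cutting steers these were 0.658, 0.802, -0.747 and -0.478, and the difference between the phenotypes was not tested. Among the steers below 600 they were 0.651, 0.546, -0.474 and -0.686, and among those of 600 or above 0.717, 0.647, -0.657 and -0.399. Adjusted over the 6 pairs, the highest permutation p of these 16 values of rho was 0.0240, for miR-10a with miR-196b below 600.

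The relations within the pairs held under each of 3 scalings, and those of miR-196b with the miR-10 pair did not hold with total counts alone. With total counts of all rows other than miR-1, rho was 0.814 and 0.450 within the miR-10 and miR-196 pairs, -0.593 for miR-10a with miR-196b and -0.504 for miR-10b with miR-196b. With total counts alone, which miR-1 dominates, it was 0.774 and 0.684 within the pairs, -0.209 for miR-10a with miR-196b (adjusted permutation p = 0.0998) and -0.06 for miR-10b with miR-196b (adjusted permutation p = 0.694). Under that scaling miR-10b and miR-196a had rho = 0.339 (adjusted permutation p = 0.00574).

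**Figure D4:**
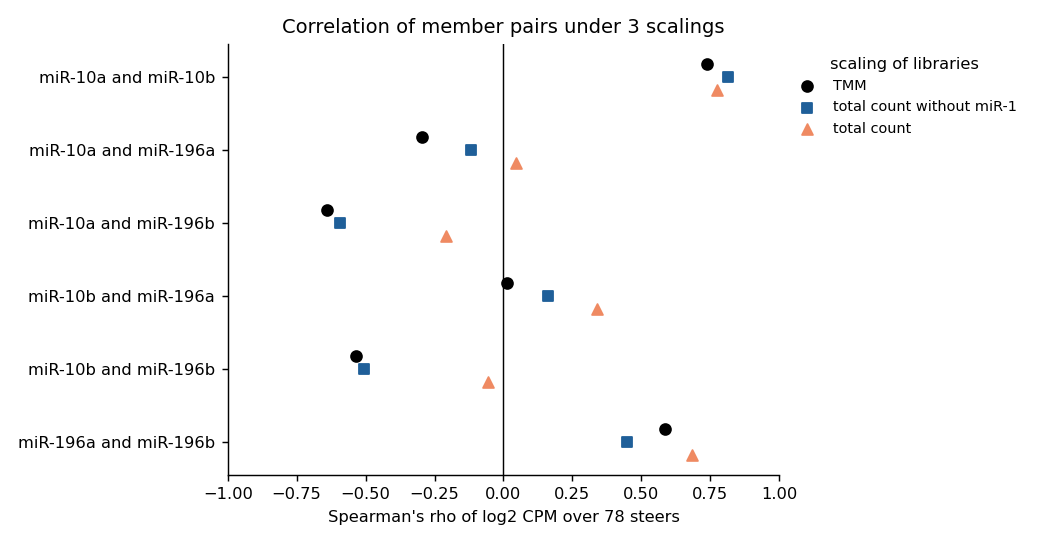
Spearman's rho over 78 steers (horizontal axis, from -1 to 1) of each pair of HOX-cluster miRNAs (vertical axis), with libraries scaled by TMM (circles), by total counts without miR-1 (squares) or by total counts (triangles). The pairs miR-10a with miR-10b and miR-196a with miR-196b lie at 0.450 or higher under each scaling, while miR-10a with miR-196b goes from -0.640 with TMM to -0.209 with total counts.

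Ratios within a library, which need no scaling, varied least within the pairs. Here too the part of reads that fit both rows of a pair was not tested. The log2 ratio of miR-10b to miR-10a had an SD of 0.22 over the 78 steers and that of miR-196a to miR-196b an SD of 0.29, where counting alone would give 0.08 and 0.11. The ratio of miR-10a to miR-196b had an SD of 0.60 on the log2 scale, where counting alone would give 0.12, and ran from 0.440-fold to 2.43-fold, a 5.53-fold span between steers. That of miR-10b to miR-196b had an SD of 0.52 and a 4.71-fold span, and those of miR-10a and miR-10b to miR-196a had SDs of 0.49 and 0.38.

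The miRNAs most like each member over the 78 steers, by Spearman's rho among the 251 other miRNAs tested, differed between the pairs. For miR-10a they were miR-10b (0.737), miR-99a-5p (0.704) and miR-93 (0.676), and for miR-10b they were miR-10a (0.737), miR-99a-5p (0.649) and miR-22-5p (0.619). For miR-196a all 3 were of the let-7 family, miRNAs of differentiated cells, namely let-7a-5p (0.761), miR-98 (0.734) and let-7c (0.708). Next to miR-196b stood miR-6119-5p (0.697), miR-146a, an immune-response miRNA (0.618), and miR-16a (0.618), with miR-196a at rank 5. At the other end, miR-10a and miR-10b ranked 251 and 247 of 251 in likeness to miR-196b. The median rho over all 251 lay between -0.0061 and 0.03 for each member. The steers share their libraries in each of these values, which are given as a description.

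Some related miRNAs outside the HOX clusters varied with the miR-10 pair, miR-99a-5p most of all. By sequence miR-99 and miR-100 belong to the miR-10 family, and miR-125 is made from the same gene clusters as these, and 6 such rows were tested. All 6 had a rho above 0 with miR-10a and with miR-10b, from 0.210 and 0.162 for miR-125a to 0.704 and 0.649 for miR-99a-5p, with miR-125b at 0.592 and 0.520. In likeness to miR-10a and miR-10b, miR-125a ranked only 66 and 74 of 251 and miR-99a-3p 59 and 63. The median rho over all 251 was -0.0061 and 0.03, so a rho above 0 is common in itself. With miR-196b all 6 were below 0, from -0.564 for miR-100 to -0.155 for miR-125a, and with miR-196a 5 of 6 were, miR-125a being at 0.144. With total counts alone the values with miR-196b ran from -0.180 to 0.260, and those with miR-196a turned, with 5 of 6 above 0 and a range of -0.03 to 0.466. None of the 6 passed the test between dark-cutting and normal steers (adjusted p from 0.710 to 0.987, edgeR), with log2 fold changes of -0.02 ± 0.06 (SE) for miR-99a-5p, -0.16 ± 0.16 for miR-99a-3p, 0.0033 ± 0.07 for miR-99b, -0.0071 ± 0.07 for miR-100, -0.0068 ± 0.06 for miR-125a and 0.03 ± 0.05 for miR-125b. The HOXC-cluster miRNA miR-615 had 1 count in all libraries together and was not tested.

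Of 24 pairs of a marker list and a member, 15 had a rho that passed (adjusted permutation p under 0.05), and 6 of these kept their sign under all 3 scalings. The other miRNAs were not set against the marker lists, so this count does not set the members apart from them. A permutation p was taken with TMM only, so a kept sign does not say that a relation would pass under the other scalings. The smooth muscle and pericyte markers miR-143 and miR-145, 2 of 2 with counts, summed to 1.28% to 6.36% of counts in normal and 1.43% to 4.73% in dark-cutting steers. Their summed level had r = -0.403 and rho = -0.443 with miR-10b and r = 0.418 and rho = 0.435 with miR-196b (permutation p from 3e-05 to 0.00017, adjusted p of 0.00102 or less over 24 pairs of list and member), and r = -0.428 and 0.496 without the 2 steers farthest from the median of the markers. Neither of these 2 markers was set against the members alone. Between dark-cutting and normal steers the log2 fold change was -0.23 ± 0.12 (SE) for miR-143 and 0.07 ± 0.10 for miR-145 (adjusted p = 0.416 and 0.818, edgeR). With miR-10a their summed level had rho = -0.364 (adjusted permutation p = 0.00416). Under the other scalings, total counts without miR-1 and then total counts, rho kept its sign but was weaker in places. It was -0.459 and -0.119 with miR-10a, -0.600 and -0.227 with miR-10b, and 0.162 and 0.446 with miR-196b. The white blood cell markers, 5 of 5 with counts, were between 0.00387% and 0.0207% of counts in normal and between 0.00428% and 0.0148% in dark-cutting steers. Their summed level had r = 0.341 and rho = 0.364 with miR-196b (permutation p = 0.00248 and 0.00132, adjusted p = 0.00744 and 0.0045), and r = 0.331 without the 2 farthest steers. With the other scalings, in the same order, that rho was 0.194 and 0.464. The fibroblast markers, 6 of 6 with counts, held 0.233% to 1.15% of counts. The summed level of the 5 that passed the low-count filter had r = 0.255 and rho = 0.357 with miR-10a (permutation p = 0.0238 and 0.0015, adjusted p = 0.0437 and 0.0045), and r = 0.414 without the 2 farthest steers. With the other scalings that rho was 0.524 and 0.636. The last of the 6 was that of the red blood cell markers with miR-196b (rho = 0.269, adjusted permutation p = 0.0303), at 0.194 and 0.524 with the other scalings. The other 9 turned under at least 1 other scaling. With TMM their rho was -0.448 for the endothelium markers with miR-10b, -0.272 with miR-10a and 0.258 with miR-196b, and -0.382 and -0.289 for the red blood cell markers with miR-10a and miR-10b. It was -0.306 and -0.399 for the white blood cell markers with miR-10a and miR-10b, -0.322 for the fibroblast markers with miR-196a and 0.283 for the muscle fibre markers with miR-196a. The part of these markers in the relations between the members was not tested.

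The spread of the members between normal steers was below that of most miRNAs. The SD of log2 CPM was 0.26 for miR-10b, 0.28 for miR-196a, 0.30 for miR-196b and 0.31 for miR-10a, at ranks 32, 47, 65 and 72 of 252 from the lowest, with a median of 0.43 over all. Low-count miRNAs carry more counting error, so miRNAs within 1 log2 unit of each member's level were also compared. Among these the SD of miR-10b exceeded 7 of 14, that of miR-196a 14 of 48, that of miR-196b 18 of 48 and that of miR-10a 23 of 49. Against miRNAs of like level, each member was thus at or below the middle.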

How the data were processed

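Small RNA libraries were made from total RNA of frozen biopsies with a NEXTflex kit, as the labels' protocols state. Trimmomatic 0.32, DESeq2 1.34.0 and FastQC were used per the submitters' processing notes. No source used here gives the aligner, counter, miRNA reference or build, and no sequence or position is printed. The deposited matrix holds raw read counts per mature miRNA and steer. The authors' deposited table gives a mean normalized signal, a log2 fold change with its error, a Wald score, and p-values, per the file headers, which name no contrast.

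Groups came from the phenotype label, and each title number was taken as 1 steer. All 3003 pairs of libraries differed beyond sampling noise, with a chi-square of at least 8.9 per degree of freedom. Counts were tested over all miRNAs with edgeR 4.0.16 in R 4.3.3 (quasi-likelihood F test, robust, TMM, Benjamini-Hochberg, threshold 0.05). The fits were also run on simulated counts, and how many set changes they recovered is not given here. The phenotype comparison used filterByExpr with a minimum count of 10. The others required the equivalent of 10 counts in 8 libraries and 15 in all. Log2 CPM had a prior count of 2. Standard errors and 95% intervals were taken from the F statistic. Ratios had a pseudocount of 0.5. Permutation tests used 100000 resamples and were two-sided, or were exact for the 8 against 17 steers. DESeq2 1.42.0, limma-voom 3.58.1, other scalings, filters and left-out steers were the alternatives. Depth was 1427817 to 4535675 counts per library, and repeated reads may be PCR copies.

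Named were the 4 members, the 3 tested miRNAs with the highest Spearman's rho with each, the wider family list and some of the markers. The muscle fibre list was miR-1, miR-133a, miR-133b, miR-206, miR-499, miR-208b and miR-486. The endothelium list was miR-126-3p and miR-126-5p. The fibroblast list was miR-199a-3p, miR-199a-5p, miR-199b, miR-214, miR-21-5p and miR-21-3p. The white blood cell list was miR-142-3p, miR-142-5p, miR-223, miR-150 and miR-155. The members and lists were chosen with earlier results of these data known. The contrasts between degrees, the tests of animal-number sets, the marker list correlations and the comparison of spread were added after values were seen.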

Additional observations from a re-analysis of the deposited data

Results flagged for a closer look

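In miR-196b, replicate 7 of degree 1/3 lay at 5.78 log2 CPM, with 202 counts, and its gap to the next steer was 0.518 of the range of the 9 steers of that degree, above Dixon's 95% critical value of 0.493. This steer also had the lowest miR-196a of all 78, at 6.59 log2 CPM, while its miR-10a and miR-10b were 6.94 and 11.43. Chance alone flags about 1 in 20 groups, and 18 groups of values were looked at. Without this steer the log2 difference of degree 1/3 from degree 1/4 in miR-196b was -0.45.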

How the results depend on the processing

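No member passed the threshold in any comparison with normal steers, and signs near 0 moved with the processing. Scaled by total counts, the phenotype log2 fold changes of miR-10a, miR-10b and miR-196b were 0.12, 0.10 and 0.080, and without miR-1 in the total 0.064, 0.038 and 0.044. For miR-196a they were 0.17 and 0.13, against 0.07 with TMM. For miR-10a, DESeq2 gave 0.0042, no filter 0.014, and the steers below and from 600 gave 0.0075 and 0.022. For miR-196b, no filter gave 0.0042 and the steers below 600 gave 0.043, where miR-196a was at -0.0070. Over all miRNAs, 1 was called without miR-1 in the total and 2 with no filter. By degree, total counts gave 0.042 for miR-10b in 1/4, 0.029 for miR-196a in 1/3, and 0.12 and 0.16 for miR-10b and miR-196b in 1/2. Without miR-1 in the total the last 2 were 0.010 and 0.047, and miR-10b was 0.0086 in 2/3, where limma-voom gave -0.045 for miR-196b. Slopes on degree were 0.25, 0.18 and 0.19 for miR-10a, miR-10b and miR-196b with total counts, and 0.15, 0.062 and 0.11 without miR-1, where miR-196a was at 0.44 and 0.34. For miR-10a the slope was 0.0094 by DESeq2 and 0.037 with no filter, and for miR-196b 0.0023 with no filter. The slope test called 3 miRNAs with DESeq2, 3 with total counts, 3 without miR-1, 3 with no filter and 0 with limma-voom. Within dark-cutting steers miR-10a was 0.0062 with total counts and 0.012 without miR-1.

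When 1 of all 78 steers was dropped at a time, phenotype values ran from -0.027 to 0.029 for miR-10a, from -0.045 to 0.0035 for miR-10b and from -0.055 to 0.026 for miR-196b. Against normal steers, with normal replicate 19 or 1 steer of the degree left out, values in degree 1/2 ran from -0.072 to 0.11 for miR-10a and from -0.24 to 0.22 for miR-196b. In degree 2/3 they ran from -0.070 to 0.12 for miR-10a, from -0.034 to 0.28 for miR-196a and from -0.29 to 0.27 for miR-196b, with 0 to 1 miRNAs called. The slope of miR-10a was -0.033 without normal replicate 19 and 0.048 without the 3/4 steer, the only steers left out there. The miR-196a to miR-196b log2 ratio difference was -0.041 below 600.

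With total counts, rho was 0.045 for miR-10a with miR-196a, -0.209 for miR-10a with miR-196b, 0.339 for miR-10b with miR-196a and -0.056 for miR-10b with miR-196b. For miR-10a with miR-196a it was -0.119 without miR-1, -0.162 in normal steers and -0.196 below 600. For miR-10b with miR-196a it was -0.166 in dark-cutting steers and -0.063 below 600. The log2 SD ratio of dark-cutting over normal steers was 0.12 for miR-10b and -0.057 for miR-196a with total counts, and -0.10 for miR-196a without miR-1. The scalings also moved the median of all miRNAs, and the cause of these changes was not tested. No paired analysis was possible because the labels carry no replicate numbers and each steer belongs to 1 group. Small degree groups limit precision: 3 and 4 steers in degrees 1/2 and 2/3 left standard errors of up to 0.21 log2 units.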

Other observations

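The spread of miR-196b was larger in dark-cutting steers, with an SD of 0.45 log2 CPM against 0.30 in normal steers, or 1.47-fold (permutation p = 0.0349, two-sided, adjusted p = 0.140 over 4 members). With total counts it was 1.10-fold (permutation p = 0.473) and with total counts without miR-1 1.38-fold (permutation p = 0.0476, adjusted p = 0.191). The SD ratios of the other members were 1.02 for miR-10a (permutation p = 0.905), 0.759 for miR-10b (permutation p = 0.0893) and 1.17 for miR-196a (permutation p = 0.263). This comparison was made after the values were seen, and none passed with adjustment.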
